A study of Mus musculus with 20 samples.

Results

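The Kcn genes of the mouse encode the pore-forming and auxiliary subunits of potassium channels, and their transcripts are described here in the hippocampus of young and aged mice with and without 11β-hydroxysteroid dehydrogenase type 1 (11β-HSD1). Members were the genes whose symbol starts with Kcn and for which the chip has a probe set annotated to that symbol alone. Kcnh1 and Kcnj13 were left out. This gave 82 genes, measured by 164 probe sets. A probe set was kept when 2 or more of the 20 arrays read 100 or above, and the kept probe set of the highest mean stood for its gene. In this way 43 genes were kept, with 67 probe sets, and 39 genes were not, out of 16995 of 45037 probe sets kept in all. The symbol was the only ground for membership, so that Kcnq1ot1, a non-coding RNA that starts within Kcnq1, is among the 43.

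Potassium channels let potassium leave the neurone, and so set its resting potential, end the action potential and govern how fast it can fire again. In the hippocampus Kv1 channels lie along axons, Kv3 channels support fast firing of interneurones, and Kv4 channels carry the A-type current of dendrites. Inward rectifiers of the Kir3 type hyperpolarise neurones after activation of inhibitory receptors, whereas Kir4.1 of astrocytes clears potassium from the space around active neurones. Calcium-activated channels shape the after-hyperpolarisation, a current long studied in hippocampal ageing and in the response of neurones to glucocorticoids.

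RNA came from whole hippocampi of 20 male mice, with 1 Affymetrix Mouse Genome 430 2.0 array for each mouse and 4 mice in each of 5 groups. WT_Y mice were young wild-type C57BL/6J mice of 6 months, and KO_Y mice were of the same age and homozygous for a targeted disruption of Hsd11b1, the gene of 11β-HSD1, congenic on C57BL/6J. The enzyme regenerates active glucocorticoid within cells, and the disruption was carried in every tissue and throughout life. KO_A mice were Hsd11b1-/- mice of 24 months. They were not separated by memory, and the paper reports intact spatial memory in every aged mouse of this genotype. Wild-type mice of 24 months were separated by their spatial memory in the Y-maze into memory-unimpaired (WT_AU) and memory-impaired (WT_AI) mice, and WT_A joins the 8 of them. Single mice carry the group and the label's number, as in WT_Y-369.

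Values are normalised chip intensities on a linear scale, made by the authors with the robust multichip average, and differences are log2 fold changes of the group means, so that a gene at -0.16 in WT_A against WT_Y has a log2 mean lower by that much in WT_A. A probe set reads its own transcript on its own scale, so levels were compared between mice and never between genes. In the summed level of a marker list, also compared between mice only, the markers that read highest weigh most. Each difference was tested with limma over all 16995 probe sets, with 1 estimate of the spread from the 5 groups, and a gene was called at a Benjamini-Hochberg adjusted p under 0.05. An exact permutation test of single genes, two-sided and not adjusted, can give no p below 0.0286 for 4 mice against 4 and none below 0.00202 for 8 against 4. The labels give 1 array to each mouse and name no batch.

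Array medians lay between 39.4 and 41.3, and any pair of arrays correlated with r between 0.989 and 0.997. Hsd11b1 read 549.6 to 804.2 in the wild-type mice and 39.5 to 65.2 in the Hsd11b1-/- mice, without overlap. The dissections were not equal in what they held beside the hippocampus. The summed level of 8 markers of the choroid plexus, the tissue that makes cerebrospinal fluid, ranged from 1387 to 21839.5 within KO_Y alone. Ttr by itself read 1142.8 to 19716.1 in the KO_Y mice. The summed level of 6 thalamic markers ranged from 1149 to 3094 within KO_A. Within WT_Y that of 5 liver and pituitary transcripts ranged from 184 to 4715. Alb read 2911.9 in WT_Y-374 and 1670.4 in WT_Y-369, against 117 and 32.9 in the other WT_Y mice. The mean log2 of 8 dentate gyrus markers, relative to the average over all mice, ran from -0.95 to 0.43 in WT_Y. The part of these differences in the values of WT_Y was not tested. Mice KO_A-41, KO_A-42 and WT_Y-374 stood apart from the rest of their groups, with array weights in limma of 0.289, 0.315 and 0.252. Values without KO_A-41 are given for the members where its absence changed a call and for others that it moved. Relative to the average over all mice (mean log2), KO_A-41 was the lowest KO_A mouse in thalamic (-0.38), choroid plexus (-1.40) and astrocyte markers (-0.07). KO_A-42 and KO_A-222 were the highest of KO_A in thalamic markers (0.63 and 0.90). Fits without KO_A-41 thus keep the KO_A mice with more of these markers, and the part of such RNA in their calls was not tested. In bulk hippocampus, fewer cells of a type and less RNA per cell cannot be told apart.

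The largest subfamilies kept were the inward rectifiers, with 6 of 14 listed Kcnj genes, the A group of Kv1 channels, with 4 of 7, and the KChIP subunits, with 4 of 4. Of the tandem-pore Kcnk genes 3 of 12 were kept, and of the Kcne subunits 1 of 5. The kept genes with the fewest arrays at 100 or more were Kcnq1ot1 (2 arrays), Kcnmb2 (4), Kcnab3 (11) and Kcne2 (11). The highest values just outside were 97.7 for Kcnk4, 90.6 for Kcnk12 and 89.3 for Kcnd1. A gene not kept was not shown to be silent, and Kcnj6, the Kir3.2 gene, is among these although it has 5 probe sets on the chip.

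No potassium channel gene was called by limma in any of the 9 comparisons of the design. Comparisons with the same group share its 4 mice, so that these counts are not independent of each other. The share of all 16995 that was called was 2.41% in KO_A against KO_Y, 0.594% in WT_A against WT_Y, 0.430% in WT_AU against WT_Y, 0.141% in WT_AI against WT_Y and 0.129% in KO_Y against WT_Y. The shares were 0.0294% in KO_A against WT_A, 0.0118% in WT_AI against KO_A, 0.0471% in the difference between the age effects and 0% in WT_AI against WT_AU. With so few probe sets called, 0 of 43 is near the background in each of them. The smallest adjusted p of any member was 0.101, that of Kcnj16 in KO_A against KO_Y, and in the other comparisons it lay between 0.244 and 1.0.

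At an unadjusted p under 0.05, 4 of 43 members stood in WT_A against WT_Y (9.30%, against 7.10% of all probe sets) and 2 in KO_Y against WT_Y (4.65%, against 3.71%). With the aged Hsd11b1-/- mice there were 5 in KO_A against KO_Y (11.6%, against 20.9%), 5 in KO_A against WT_A (11.6%, against 14.8%), 5 in WT_AI against KO_A (11.6%, against 10.7%) and 3 in the difference between age effects (6.98%, against 10.5%). The remaining counts were 2 in WT_AI against WT_Y (4.65%, against 4.87%), 3 in WT_AU against WT_Y (6.98%, against 6.06%) and 0 in WT_AI against WT_AU (against 0.883%). The members' shares were near the background or below it.

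The ranges of the mice lay apart in 1 member in WT_AI against WT_Y (Kcnc1, 2.33%, against 3.52% of all probe sets) and in 1 in KO_Y against WT_Y (Kcnk2, 2.33%, against 2.57%). No member had such separation in the other comparisons, where the background was 1.55% in WT_A against WT_Y, 4.04% in WT_AU against WT_Y, 7.27% in KO_A against KO_Y, 0.959% in KO_A against WT_A, 1.28% in WT_AI against WT_AU and 3.56% in WT_AI against KO_A.

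The fit bounded most of the differences. The 95% interval lay within 1.5-fold in either direction for 41 of 43 members in WT_A against WT_Y (96.5% of all probe sets), for 39 in KO_A against KO_Y (92.4%), for 40 in KO_Y against WT_Y (96.5%), for 40 in KO_A against WT_A (96.3%) and for 41 in WT_AI against WT_AU (97.5%). It did so for 41 in WT_AI against WT_Y (95.9%), for 41 in WT_AU against WT_Y (95.5%) and for 39 in WT_AI against KO_A (16148 of the 16995 probe sets). The difference between age effects was bounded least, with 33 of 43 (76.7%, against 87.8%). Only Kcne2 had group means that differed by 1.5-fold or more (1 of 43 or 2.33%, against 2.42% of all probe sets). The spread of the members within groups had a median SD of 0.15 on the log2 scale, against 0.12 for all probe sets, and ran from 0.09 in Kcnj11 to 1.90 in Kcne2.

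**Figure D1:**
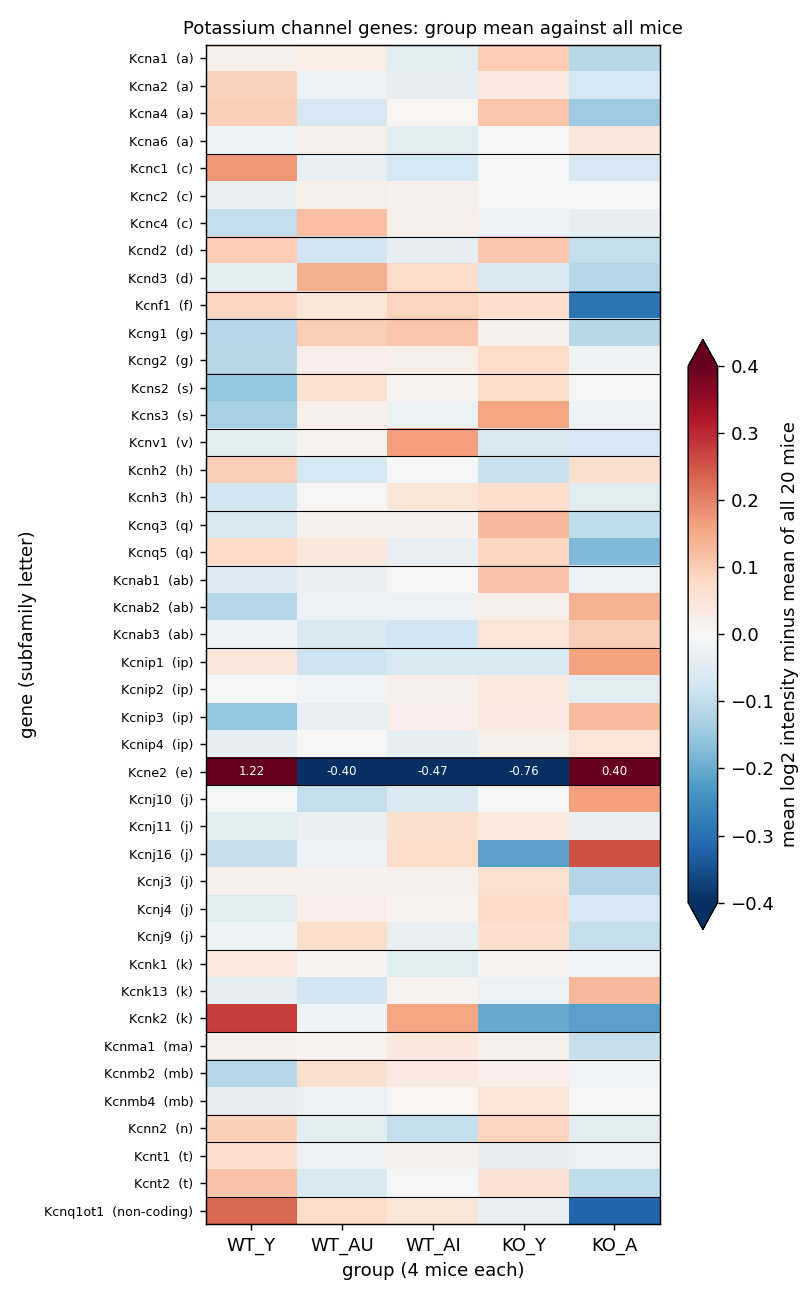
Mean log2 intensity of each of the 43 potassium channel genes in each group (columns, 4 mice each) minus its mean over all 20 mice, with rows ordered by subfamily letter. Red is above and blue below the mean of all mice, the scale ends at 0.4 in either direction, and Kcne2, which goes beyond it, has its values printed.

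The members were split by direction in another way in each comparison with age, a contrast that was not tested over the list. In WT_A against WT_Y 25 of 43 had a log2 fold change above 0 (46.4% of all probe sets did), with a median of 0.01. In KO_A against KO_Y 13 of 43 did (56.4% of all probe sets), with a median of -0.07 against 0.02 over all probe sets. Among those below 0 in the Hsd11b1-/- mice were the members kept of Kcnd, Kcng, Kcnq and Kcns (2 of 2 in each), Kcnf1, Kcnma1, Kcnn2 and both Kcnmb genes. Of these, Kcnd3, Kcng1, Kcng2, Kcns2, Kcns3, Kcnq3, Kcnma1 and both Kcnmb genes were above 0 in WT_A against WT_Y, by 0.01 to 0.22, and none of them was called in either. Several of the wild-type values rested on WT_Y-374. Without it 19 of 43 members were above 0 in WT_A against WT_Y (37.5% of all probe sets), with Kcns2 at 0.01, Kcng2 at 0.02, Kcns3 at 0.03, Kcnq3 at -0.02 and Kcnma1 at -0.04, whereas Kcng1 stood at 0.23, Kcnmb2 at 0.17 and Kcnd3 at 0.09. Leaving out WT_Y-373 instead moved the count the other way, to 28 of 43 (47.7% of all probe sets), with a median of 0.05.

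**Figure D2:**
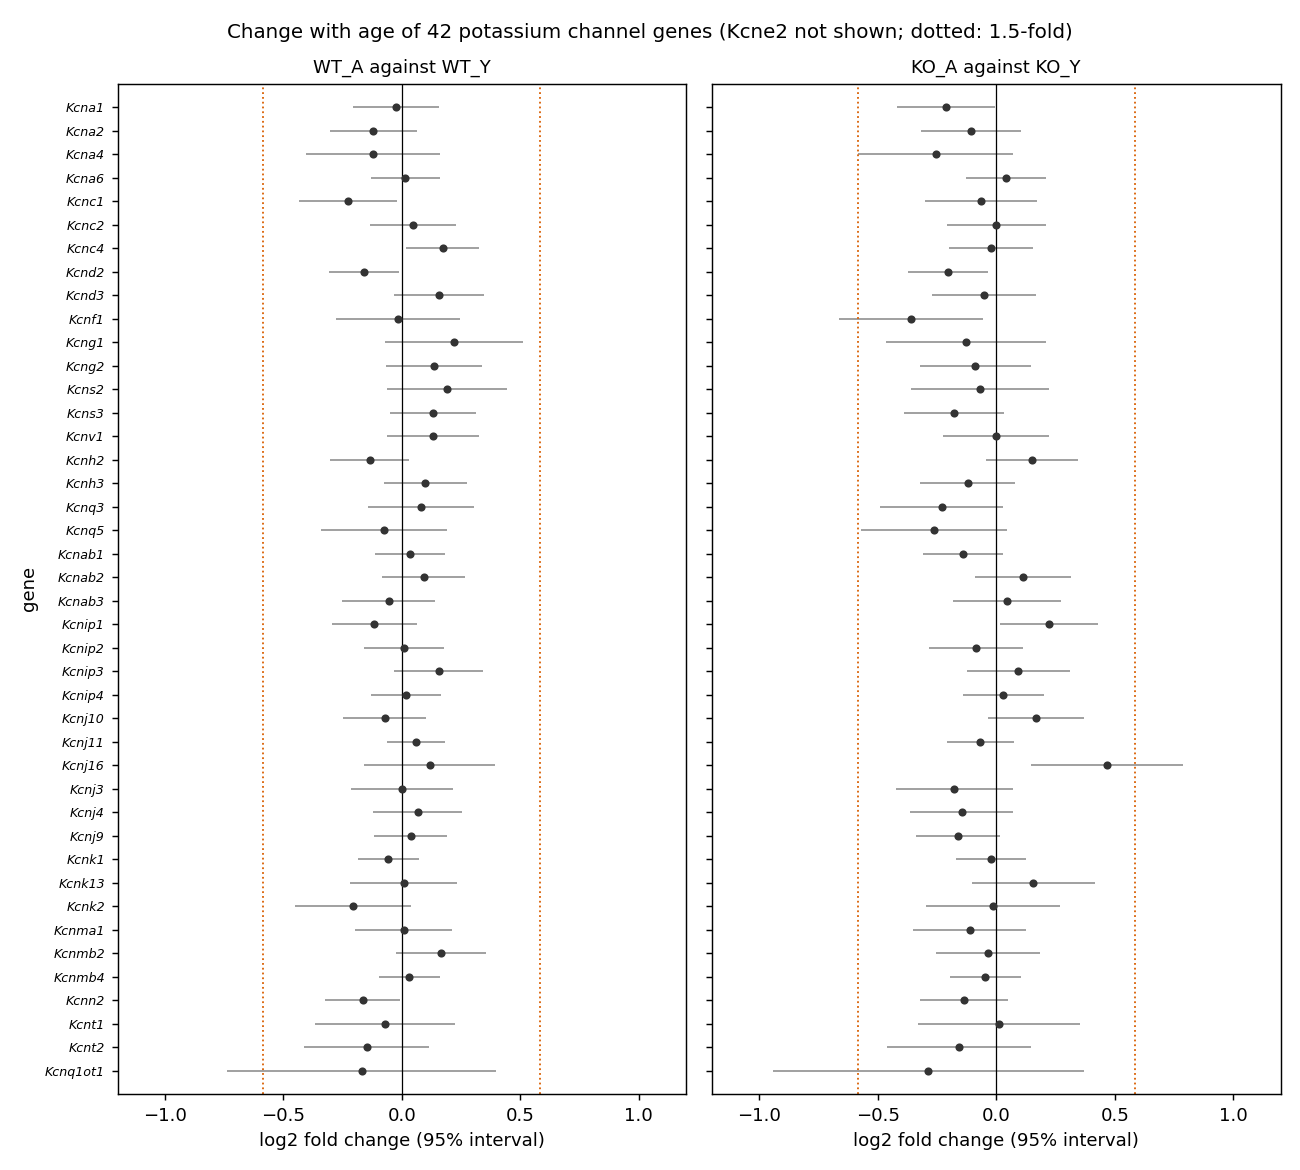
Log2 fold change with age (points) and its 95% interval in limma (lines) of 42 potassium channel genes in wild-type mice (left) and in Hsd11b1-/- mice (right), ordered by subfamily, without Kcne2. Dotted lines mark 1.5-fold, and all 42 points lie between them.

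Of the A-type channels, Kcnd2 had lower means in the aged mice of both genotypes, without passing the test. It encodes Kv4.2, the main pore of the dendritic A-type current of pyramidal cells. It read 1735, 1740, 1967 and 1476 in the WT_Y mice, 1474, 1597, 1624 and 1401 in the WT_AU mice and 1646, 1520, 1477 and 1605 in the WT_AI mice. Each of the 8 aged wild-type mice was below the mean of WT_Y (1730 ± 100, mean ± SEM, n = 4), and the ranges overlapped through WT_Y-374. This was a log2 fold change of -0.16 (SE 0.07, adjusted p = 0.633 in limma, exact permutation p = 0.0444). It was -0.09 without WT_Y-373, the highest mouse, and -0.23 without WT_Y-374, the lowest of its group.

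The Hsd11b1-/- mice read 1838, 1659, 1850 and 1587 for Kcnd2 when young and 1568, 1627, 1391 and 1434 when aged. Each of the 4 aged mice was below the mean of KO_Y (1733 ± 65.4, n = 4), and the ranges overlapped. Here the log2 fold change was -0.20 (SE 0.08, limma adjusted p = 0.165, exact permutation p = 0.0571). These comparisons share no mouse. The other 2 probe sets of Kcnd2 were at -0.15 and -0.26 in WT_A against WT_Y and at -0.25 and -0.41 in KO_A against KO_Y (limma adjusted p = 0.134 and 0.0771). All 3 probe sets of the gene thus lay below 0 in each genotype.

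After these values were seen, age was also tested over both genotypes together. Kcnd2 was at -0.18 (SE 0.05, limma adjusted p = 0.0783), again not called, while 2.59% of all probe sets were called and 0 of 43 members were (3 of 43, against 17.7%, at an unadjusted p under 0.05). Of its other probe sets, 1 was called at -0.34 (limma adjusted p = 0.0291) and the other was at -0.20 (adjusted p = 0.0800). The call of the main probe set depended on the setting. It passed without WT_Y-374 (-0.22, adjusted p = 0.0182), without KO_A-41 (-0.19, adjusted p = 0.0429), with arrays centred on their medians (-0.19, adjusted p = 0.0366) and with the mean of its probe sets (-0.24, adjusted p = 0.0304). It was weakest without WT_Y-373 (-0.15, adjusted p = 0.176). Between the genotypes these age effects differed by -0.04 (95% interval -0.27 to 0.18).

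Kcnd3, the Kv4.3 gene, did not share this direction. It read 745.4 to 972.1 in WT_Y, 786.4 to 1052 in WT_A, 811.3 to 875.9 in KO_Y and 708.4 to 1036 in KO_A. With age it was at 0.16 in WT_A against WT_Y (limma adjusted p = 0.831) and -0.05 in KO_A against KO_Y (adjusted p = 0.812). The latter was -0.17 without KO_A-41 and 0.02 without KO_A-223. In KO_A against WT_A Kcnd3 was at -0.22 (SE 0.09, adjusted p = 0.278). Without KO_A-41, whose 1036 was the highest of its group, it was at -0.34 (adjusted p = 0.0203). That fit called 1413 of all probe sets, against 5 with all mice. Without KO_A-223, the lowest of its group, Kcnd3 was at -0.16 (adjusted p = 0.649).

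The KChIP subunits bind Kv4 channels, carry them to the membrane and slow their inactivation. All 4 were kept, and 3 of them were above 0 in KO_A against KO_Y. Kcnip1, the KChIP1 gene, which is found in interneurones, read 146.6, 161.0, 153.8 and 138.6 in KO_Y and 157.8, 207.4, 189.4 and 150.8 in KO_A. Each KO_A mouse was above the KO_Y mean, with overlap of the ranges (log2 fold change 0.22, SE 0.10, limma adjusted p = 0.206, exact permutation p = 0.143).

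In WT_A Kcnip1 lay in a narrow band from 143.7 to 158.1, and 3 of 4 WT_Y mice lay above that band (165.4, 192.8 and 158.5) and the other below it (133.9). KO_A against WT_A was at 0.23 (SE 0.09, adjusted p = 0.249, exact permutation p = 0.0141, higher in 4 of 4 mice than the WT_A mean), and the other probe set of the gene was at 0.23 too. The highest KO_A values were those of KO_A-42 and KO_A-222, which were also the highest in thalamic markers, and without both mice Kcnip1 was at 0.04 in KO_A against KO_Y and 0.05 in KO_A against WT_A. Leaving out the highest mice of a group lowers its mean in any case, and the part of thalamic RNA in these values was not tested. The age effects of Kcnip1 differed by 0.34 between the genotypes (SE 0.13, limma adjusted p = 0.426), with the smallest p of the members in that comparison. Kcnip2, Kcnip3 and Kcnip4 were at -0.09, 0.09 and 0.03 in KO_A against KO_Y and at 0.01, 0.16 and 0.02 in WT_A against WT_Y.

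Among the Kv3 genes, whose channels repolarise fast-firing neurones, the 3 members did not share a direction with age in wild-type mice. Kcnc1, the Kv3.1 gene, read 1068, 1081, 1000 and 1320 in WT_Y, 919 to 994 in WT_AI and 856 to 1117 in WT_AU. All WT_AI mice lay below all WT_Y mice, and the WT_AU mice overlapped with WT_Y through WT_AU-126 and WT_AU-26. It was at -0.24 in WT_AI against WT_Y (SE 0.11, limma adjusted p = 1.0, exact permutation p = 0.0286) and -0.23 in WT_A against WT_Y (SE 0.10, adjusted p = 0.612, exact permutation p = 0.0242). Without WT_Y-374, the highest of its group, these were -0.16 and -0.14.

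Over the 20 mice, with group means subtracted, Kcnc1 and 9 interneurone markers had a Pearson r of 0.413 (permutation p = 0.119, adjusted over 5 relations 0.149) and a Spearman rho of 0.465 (permutation p = 0.0758, adjusted 0.0948), and r was 0.425 without WT_Y-371 and WT_AU-23. The probe sets of Kcnc1 disagreed, with 0.13 and -0.03 in WT_A against WT_Y in the other 2 (adjusted p = 0.726 and 0.996). In the Hsd11b1-/- mice the main probe set was at -0.06 with age (adjusted p = 0.784). Kcnc4, the Kv3.4 gene, was at 0.17 in WT_A against WT_Y (SE 0.07, adjusted p = 0.604, exact permutation p = 0.0848) and above the WT_Y mean in 6 of 8 mice. In WT_AU against WT_Y it was at 0.22 (adjusted p = 0.627), and in KO_A against KO_Y at -0.02 (adjusted p = 0.907). Kcnc2, the Kv3.2 gene, was at 0.05 and 0.00 with age in the genotypes, with intervals of -0.13 to 0.23 and -0.21 to 0.21.

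Of the Kv1 genes Kcna1 (Kv1.1) and Kcna4 (Kv1.4) were below 0 in KO_A against KO_Y, at -0.21 (limma adjusted p = 0.231) and -0.25 (adjusted p = 0.355). Kcna1 read 1448, 1367, 1342 and 1351 in KO_Y and 1365, 1441, 1019 and 993 in KO_A. The KO_A mice fell into a pair within the range of KO_Y (KO_A-41 and KO_A-42) and a pair below it, and the exact permutation p was 0.314. All 3 probe sets of Kcna1 were below 0 there (-0.21, -0.21 and -0.27). In WT_A against WT_Y Kcna1 was at -0.02 (95% interval -0.20 to 0.16), and Kcna2 was at -0.12 and -0.11 and Kcna6 at 0.01 and 0.04 in the comparisons with age of wild-type and Hsd11b1-/- mice.

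The Kvβ subunits, cytoplasmic partners of Kv1, had small differences. Kcnab1, Kcnab2 and Kcnab3 were at 0.04, 0.09 and -0.06 in WT_A against WT_Y and at -0.14, 0.12 and 0.05 in KO_A against KO_Y. In KO_Y against WT_Y Kcnab1 was at 0.17 (limma adjusted p = 1.0, exact permutation p = 0.114). That value rested on WT_Y-374, which read 763.2 against 991.9 to 1038 in the other WT_Y mice, and without it the log2 fold change was 0.06.

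The modifier subunits Kv5, Kv6, Kv8 and Kv9 form no channel alone and join Kv2 subunits. Kcnf1, the Kv5.1 gene, had the lowest log2 fold change of the members in KO_A against KO_Y (-0.36, SE 0.14, limma adjusted p = 0.170). It read 327.8, 268.7, 174.9 and 216.8 in KO_A, 275.4, 343.9, 297.2 and 321.4 in KO_Y and 251.5 to 370.1 in WT_A. KO_A-222 and KO_A-223 lay below every mouse of the other groups, KO_A-42 lay below all KO_Y and all but 1 of the WT_A mice, and KO_A-41 lay within the ranges of both. Against WT_A the log2 fold change was -0.36 (SE 0.12, adjusted p = 0.244, exact permutation p = 0.0444). Without KO_A-41 it was -0.51 in both comparisons (adjusted p = 0.0150 and 0.0165), and without KO_A-42 and KO_A-222 together -0.21 in both (adjusted p = 0.628 and 0.761). With age in wild-type mice it was -0.02 (95% interval -0.28 to 0.25), and the difference between the age effects was -0.34 (adjusted p = 0.517).

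Kcns3, the Kv9.3 gene, was highest in the young Hsd11b1-/- mice. It read 127.2, 140.4, 146.4 and 115.9 in KO_Y, 112.5, 114.1, 120.6 and 87.0 in WT_Y, 109.7 to 125.0 in WT_A and 103.7 to 139.9 in KO_A. Each KO_Y mouse was above the WT_Y mean, while KO_Y-585 lay below WT_Y-373. KO_Y against WT_Y was at 0.29 (SE 0.10, limma adjusted p = 1.0, exact permutation p = 0.0571), and at 0.19 without WT_Y-374, and the difference between the age effects was -0.31 (SE 0.13, adjusted p = 0.454). Kcng1, Kcng2 and Kcns2 were at 0.22, 0.13 and 0.19 in WT_A against WT_Y, and at 0.23, 0.02 and 0.01 without WT_Y-374. In KO_A against KO_Y they were at -0.13, -0.09 and -0.07, and at -0.30, -0.20 and -0.10 without KO_A-41 (limma adjusted p = 0.142, 0.196 and 0.674). KO_A-41 was the highest KO_A mouse in each of these genes, and leaving out the highest mouse lowers a mean in any case. Without KO_A-223 they were at -0.13, -0.12 and -0.05.

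Kcnv1, the Kv8.1 gene, had its highest mean in WT_AI, with 231.6, 215.0, 270.5 and 209.8 in those mice, 203 to 211 in WT_AU and 189 to 214 in WT_Y. It was at 0.21 in WT_AI against WT_Y (limma adjusted p = 1.0, exact permutation p = 0.0571), and at 0.13 without WT_AI-49. In WT_AI against KO_A, where KO_A read 152 to 244, it was at 0.23 (adjusted p = 0.466, exact permutation p = 0.257), at 0.15 without WT_AI-49 and at 0.33 without KO_A-41.

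The Kv7 genes Kcnq3 and Kcnq5 encode the M-current, a slow current that muscarinic receptors close. They were at -0.23 and -0.26 in KO_A against KO_Y (limma adjusted p = 0.292 and 0.313) and at 0.08 and -0.08 in WT_A against WT_Y. Kcnq5 read 409, 341, 238 and 253 in KO_A against 340 to 414 in KO_Y, so that KO_A-222 and KO_A-223 lay below the young mice and the other pair among them. Kcnh2, the erg channel gene, was at -0.14 with age in wild-type mice and at 0.15 in Hsd11b1-/- mice, where KO_A read 183.7 to 232.0 and KO_Y 168.9 to 216.0. These effects differed by 0.29 (SE 0.12, limma adjusted p = 0.450). Together with Kcnip1 and Kcns3 it made up the 3 members at an unadjusted p under 0.05 in the difference between age effects. Kcnh3 was at 0.10 and -0.12.

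Kcnk2 had the smallest p of the members between the young genotypes and again between the genotypes over both ages. It encodes TREK-1, a tandem-pore leak channel that opens on stretch and on polyunsaturated fatty acids and sets the resting potential. It read 308.7, 317.1, 319.9 and 272.9 in WT_Y and 228.9, 204.3, 240.2 and 201.6 in KO_Y, without overlap. This was a log2 fold change of -0.48 (SE 0.14, 95% interval -0.76 to -0.20). It had an unadjusted p of 0.00215 in limma and an exact permutation p of 0.0286, the smallest that 4 mice against 4 can give, and did not pass over all probe sets (limma adjusted p = 0.858).

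In the aged mice Kcnk2 read 257.8, 238.2, 277.0 and 222.6 in WT_AU, 267.3, 276.6, 302.0 and 275.7 in WT_AI and 155.2, 191.4, 257.0 and 284.8 in KO_A. KO_A-41 and KO_A-42 lay below all aged wild-type mice and KO_A-222 and KO_A-223 among them. KO_A against WT_A was at -0.29 (SE 0.12, limma adjusted p = 0.279, exact permutation p = 0.0727). It was at -0.13 without KO_A-41 and at -0.42 (adjusted p = 0.274) without KO_A-223. WT_AI against KO_A was at 0.38 (SE 0.14, adjusted p = 0.444, exact permutation p = 0.114), and at 0.22 without KO_A-41.

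After these values were seen, the genotypes were compared over both ages. Kcnk2 was at -0.38 (SE 0.09, 95% interval -0.57 to -0.20, limma adjusted p = 0.249) and was not called, as 0 of 43 members were (0.118% of all probe sets), with 3 of 43 (against 5.71%) at an unadjusted p under 0.05. Without KO_A-223 it was at -0.45 and passed (adjusted p = 0.0239), and in the other fits that left out 1 mouse it did not. Kcnip3 and Kcnab2 followed at 0.16 and 0.15 (adjusted p = 0.844 for each).

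Kcnk2 lies on chromosome 1, as Hsd11b1 does, with 33 protein-coding genes between them in the RefSeq order of GRCm38.p6. Of the 43 members 4 more lie on that chromosome, Kcnj10, Kcnj9, Kcnt2 and Kcnq5, with 178, 179, 408 and 1100 protein-coding genes between each and Hsd11b1. Those were at 0.00, 0.08, -0.06 and 0.01 in KO_Y against WT_Y. The part of the position near the disrupted gene and that of the missing enzyme in the value of Kcnk2 were not tested. Kcnk2 in wild-type mice was at -0.21 with age (limma adjusted p = 0.815, exact permutation p = 0.0303), below the WT_Y mean in 8 of 8 mice, and at -0.01 in Hsd11b1-/- mice. The difference between these was 0.19 (95% interval -0.18 to 0.56). Without KO_A-41 the Hsd11b1-/- mice were at 0.14 with age and the difference was 0.35 (limma adjusted p = 0.164).

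The other tandem-pore genes had small differences with age. Kcnk1, the TWIK-1 gene, was at -0.06 and -0.02 with age in wild-type and Hsd11b1-/- mice, with intervals of -0.19 to 0.07 and -0.17 to 0.13. Kcnk13, the THIK-1 gene, whose channel is found in microglia, was at 0.01 and 0.16. Over the 20 mice, after subtraction of group means, the Pearson r of Kcnk13 and 8 averaged microglial markers was 0.628 (permutation p = 0.0116, adjusted over 5 relations 0.0193), and Spearman rho was 0.681 (permutation p = 0.00781, adjusted 0.0130). Leaving out WT_AU-23 and KO_A-41, the pair of mice most distant in these markers, gave an r of 0.570. The markers themselves were called in 6 of 8 genes in KO_A against KO_Y (against 2.41% of all probe sets) and in 3 of 8 in WT_A against WT_Y (against 0.594%), all higher, and Kcnk13 in neither.

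The glial inward rectifiers Kcnj10 and Kcnj16 had higher means in KO_A than in any other group. Kcnj16 encodes Kir5.1, which joins Kir4.1, the product of Kcnj10, in the membrane of astrocytes. Kcnj16 read 112.0, 117.9, 100.8 and 115.9 in KO_Y and 155.8, 108.0, 197.6 and 170.3 in KO_A. Only KO_A-42 lay within the range of KO_Y, and the other aged mice lay above it. The log2 fold change was 0.47 (SE 0.15, 95% interval 0.15 to 0.79, limma adjusted p = 0.101, exact permutation p = 0.114). It was 0.64 without KO_A-42, the lowest of its group (adjusted p = 0.0215), and 0.46 without KO_A-41 (adjusted p = 0.0706). Without KO_A-222, the highest of its group, it was 0.35. Over the fits that left out 1 mouse the limma adjusted p ran from 0.0215 to 0.349. The other probe set of the gene was at 0.41 (adjusted p = 0.156).

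In wild-type mice Kcnj16 read 100.6 to 151.3 when young and 111.2 to 159.7 when aged, a log2 fold change of 0.12 (95% interval -0.16 to 0.40). The difference between the age effects was 0.35 (limma adjusted p = 0.529). Over both genotypes, in the comparison of age chosen after the values were seen, it was at 0.29 (SE 0.10, adjusted p = 0.136).

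The means of Kcnj10 lay close together in 4 of the 5 groups, with 610.1 ± 19.2 in WT_Y, 574.4 ± 32.3 in WT_AU, 587.7 ± 14.8 in WT_AI and 609.3 ± 19.8 in KO_Y (SEM, n = 4). In KO_A it read 551.9, 695.3, 815.6 and 700.4, so that 3 mice lay above all others and KO_A-41 among them. KO_A against WT_A was at 0.24 (SE 0.08, limma adjusted p = 0.244, exact permutation p = 0.0384) and KO_A against KO_Y at 0.17 (SE 0.10, adjusted p = 0.325). Without KO_A-41 these were 0.34 (adjusted p = 0.0151) and 0.27 (adjusted p = 0.0368). WT_AI against KO_A was at -0.22 (adjusted p = 0.451), and -0.32 without KO_A-41 (adjusted p = 0.0467). In these 3 comparisons the fits without KO_A-41 called 1413, 2628 and 499 of all probe sets, against 5, 410 and 2 with all mice. Without KO_A-222, the highest of its group, KO_A against WT_A was at 0.16 and WT_AI against KO_A at -0.14.

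Astrocyte markers stood beside these values. All 11 of the list were kept. All had a log2 fold change above 0 in KO_A against KO_Y (median 0.26, 2 called) and in KO_A against WT_A (median 0.19, 0 called). Of all probe sets 56.4% and 60.1% were above 0 in these comparisons, and 2.41% and 0.0294% were called. The summed level of the astrocyte markers ran from 30391 to 37641 in KO_A, 28367 to 30620 in KO_Y, 29096 to 30921 in WT_Y, 30284 to 31616 in WT_AU and 29529 to 32279 in WT_AI. Relative to the average over the 20 mice, the list (mean log2) stood at -0.07 in KO_A-41, 0.20 in KO_A-42, 0.41 in KO_A-222 and 0.30 in KO_A-223. The order of the KO_A mice was the same for Kcnj10 as for the markers. All 6 thalamic markers kept of the 8 listed were above 0 in KO_A against KO_Y (median 0.33, 0 called), and stood at -0.38, 0.63, 0.90 and -0.09 in these mice. All 9 oligodendrocyte markers kept were above 0 in KO_A against KO_Y (median 0.13, 0 called) and in KO_A against WT_A (median 0.27, 0 called), with a summed level of 25036 to 39356 in KO_A, 26106 to 31838 in KO_Y and 24228 to 31964 in WT_A.

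Over the 20 mice, with group means subtracted, Kcnj10 correlated with the astrocyte markers with Pearson r = 0.818 (permutation p = 0.00113, adjusted over 5 relations 0.00282) and Spearman rho = 0.674 (permutation p = 0.00528, adjusted 0.0130). Without KO_A-41 and KO_A-222 r was 0.588. Kcnj16 did not follow them in this way, with r = 0.252 (permutation p = 0.546, adjusted 0.546) and rho = 0.179 (permutation p = 0.502, adjusted 0.502), and r = 0.153 without the same mice. Without KO_A-42 and KO_A-222 together, the mice highest in thalamic markers, Kcnj10 was at 0.10 in KO_A against WT_A and Kcnj16 at 0.55 in KO_A against KO_Y, and neither was called. The part of the astrocyte, oligodendrocyte and thalamic RNA in the values of Kcnj10 and Kcnj16 was not tested.

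The neuronal inward rectifiers were below 0 in the same comparison, without a call. Kcnj3 and Kcnj9, the Kir3.1 and Kir3.3 genes, were at -0.18 and -0.16 in KO_A against KO_Y (limma adjusted p = 0.396 and 0.281) and at 0.00 and 0.04 in WT_A against WT_Y. Kcnj9 read 220.4, 216, 224 and 228 in KO_Y and 238, 198, 179 and 184 in KO_A, so that only KO_A-41 was not below the young mice. Markers of neuronal subfields stood beside these values. In the same comparison 1 of 8 dentate gyrus markers (median -0.19), 0 of 3 CA1 markers (median -0.14) and 2 of 4 CA3 markers (median -0.07) were above 0, as were 7 of 9 interneurone markers (median 0.15), and their part was not tested. Kcnj4 and Kcnj11, the genes of Kir2.3 and of the pore of the ATP-sensitive channel, were at -0.15 and -0.07. Without KO_A-41 the members called in KO_A against KO_Y were 4 of 43, Kcnj10 higher and Kcnf1, Kcnj9 and Kcnq5 lower, and with array weights 11 of 43, 2 higher and 9 lower. Of all probe sets 2628 and 3708 were called in these fits, and 410 in the fit of all mice.

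Promoters are shown for Kcnk2 and Kcnj10, the members described above at length whose promoter holds the motif searched, because 11β-HSD1 supplies the ligand of the glucocorticoid receptor. The sequences are RefSeq, GRCm38.p6, with the strand of the gene, and capitals mark AGAACA or its reverse complement TGTTCT, an arm of the palindrome bound by that receptor. The match in Kcnj10 starts 191 bases before its start, and that in Kcnk2 starts 241 bases before 1 of its 4 listed starts.
Kcnj10 (chr1:172340992-172341051, plus strand): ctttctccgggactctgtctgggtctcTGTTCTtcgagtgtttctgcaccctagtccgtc
Kcnk2 (chr1:189402464-189402523, minus strand): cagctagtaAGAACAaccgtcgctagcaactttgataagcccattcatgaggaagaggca
A RefSeq promoter was at hand for 32 of the 43 members. In the 250 bases before the start, on either strand, AGAACA was found in 7 of the 32 (21.9%), namely Kcnab1, Kcnc2, Kcne2, Kcnip4, Kcnj10, Kcnk2 and Kcnmb4, against 18.2% of 27025 genes. TGACG, the core of the cAMP response element, was found in 8 of 32 (against 19.8% of the genes), and the whole site TGACGTCA, which contains it, in 0 (against 1.77%). These are matches of letters and no binding was measured.

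Kcne2 varied far more than any other member. Its product is a single-pass subunit that joins Kv and HCN channels, and in the brain it is abundant in the epithelium of the choroid plexus. It read 356.3, 20.1, 339.2 and 497.6 in WT_Y, 88.2, 70.0, 14.2 and 151.3 in WT_AU and 22.2, 197.7, 14.5 and 175.8 in WT_AI. In the Hsd11b1-/- mice it read 124.4, 200.6, 10.2 and 19.6 when young and 18.2, 140.4, 172.1 and 280.8 when aged. Each group held a mouse at or below 22.2 and a mouse above 150, and all groups overlapped. With age it was at -1.66 in WT_A against WT_Y (SE 1.04, limma adjusted p = 0.867) and 1.16 in KO_A against KO_Y (adjusted p = 0.603), with intervals of -3.84 to 0.53 and -1.37 to 3.68.

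The values of Kcne2 followed the choroid plexus markers mouse by mouse. With group means subtracted, Pearson r with the mean of 8 markers was 0.989 and Spearman rho 0.988 over the 20 mice, each with a permutation p of 1e-05, the smallest that the permutations can give, and 5e-05 when adjusted over 5 relations. Without WT_Y-371 and KO_A-41, r was 0.987. In WT_A against WT_Y all 8 markers were below 0 (median -1.11, 0 called) and in KO_A against KO_Y all 8 were above 0 (median 1.01, 0 called), as Kcne2 was. Their summed level ran from 8999.7 to 24722 in WT_Y, 4388 to 21372 in WT_AU, 4267 to 22588 in WT_AI and 6913 to 22600.2 in KO_A. Given these intervals, a change of Kcne2 within the hippocampus itself was not detectable.

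**Figure D3:**
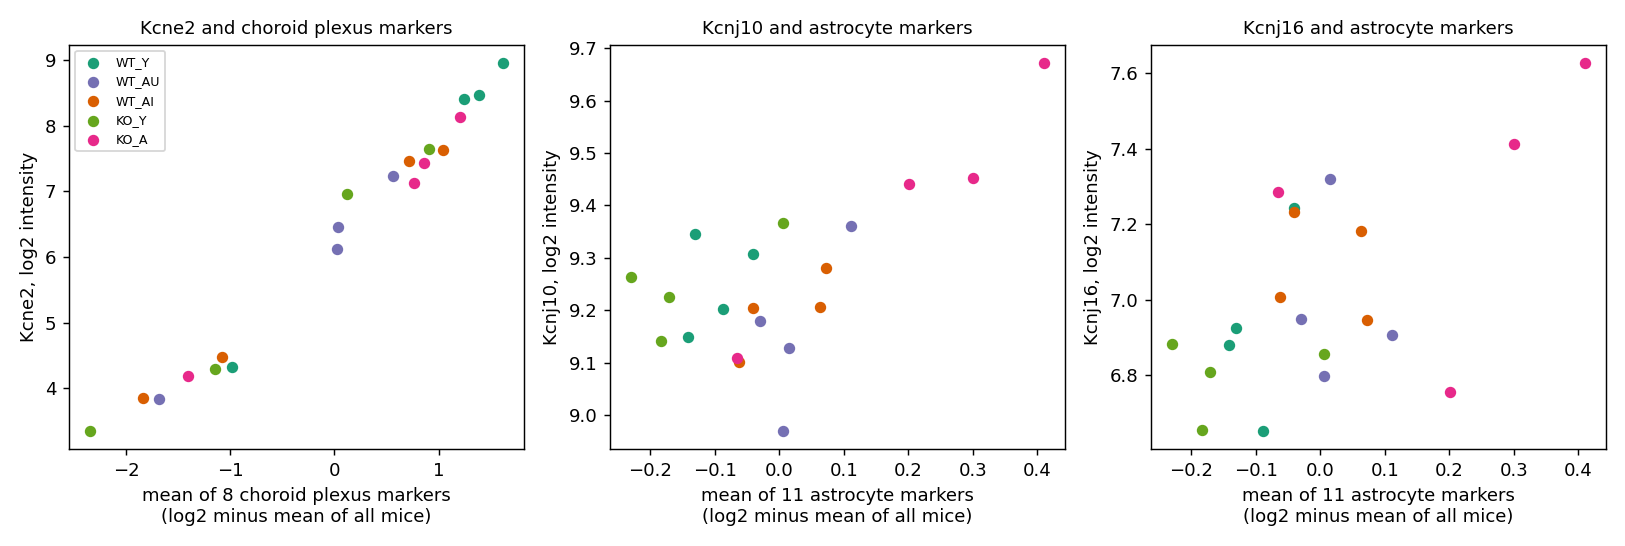
Log2 intensity of Kcne2, Kcnj10 and Kcnj16 (vertical axes) against the mean log2 of choroid plexus or astrocyte markers, relative to the average over all mice (horizontal axes), with 1 point for each of 20 mice coloured by group. Kcne2 follows its markers over the whole range, Kcnj10 stands highest in the KO_A mice with the highest astrocyte markers, and Kcnj16 is scattered.

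Of the calcium-activated channels, Kcnn2, the SK2 gene, carries part of the after-hyperpolarisation of pyramidal cells. It read 415, 423, 418 and 364 in WT_Y, 404, 329, 394 and 346 in WT_AU and 364, 308, 381 and 367 in WT_AI. All 8 aged wild-type mice were below the WT_Y mean, and the ranges overlapped through WT_Y-374. Kcnn2 was at -0.17 (SE 0.08, limma adjusted p = 0.674, exact permutation p = 0.0545) in WT_A against WT_Y, and -0.19 in WT_AI against WT_Y (adjusted p = 1.0). It was -0.14 in KO_A against KO_Y (adjusted p = 0.387) and -0.15 over both genotypes (SE 0.06, adjusted p = 0.186).

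Kcnma1, the pore of the large-conductance BK channel, was at 0.01 in WT_A against WT_Y (95% interval -0.20 to 0.21) and at -0.11 in KO_A against KO_Y (-0.35 to 0.13). Its neuronal subunit gene Kcnmb4 was at 0.03 and -0.05, with intervals of -0.10 to 0.16 and -0.20 to 0.10, among the narrowest of the members. Kcnmb2 was at 0.17 and -0.03. The sodium-activated genes Kcnt1 and Kcnt2 were at -0.07 and -0.15 in WT_A against WT_Y and at 0.01 and -0.16 in KO_A against KO_Y. Kcnq1ot1, with 34.4 to 110.2 over all mice and 2 arrays at 100 or more, was at -0.17 and -0.29 with SEs of 0.27 and 0.31.

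Between memory-impaired and memory-unimpaired aged mice 0 of 43 members were called and 0 had an unadjusted p under 0.05 in limma. The smallest p belonged to Kcnj11 (log2 fold change 0.10), Kcnv1 (0.15) and Kcnk2 (0.18), each with a limma adjusted p of 1.0. Kcnv1 was higher in 4 of 4 WT_AI mice than the WT_AU mean (exact permutation p = 0.0571), with overlap of the ranges, as was Kcnk2 (exact permutation p = 0.114). Without WT_AI-49 Kcnv1 was at 0.07. The median log2 fold change of the members was 0.00, and the values ran from -0.10 to 0.18. Intervals were within 1.5-fold for all members but Kcne2 (-2.58 to 2.46) and Kcnq1ot1 (-0.68 to 0.63), and smaller differences could not be told from the spread with 4 mice in each group.

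Partner genes of the channels were taken from a list of 46, of which 29 were kept. In WT_A against WT_Y 0 of 29 were called (against 0.594% of all probe sets) and 0 had an unadjusted p under 0.05 (against 7.10%). In KO_A against KO_Y 1 of 29 was called (against 2.41% of all probe sets), Htr1a, the 5-HT1A receptor gene that opens Kir3 channels (-0.31, SE 0.07, limma adjusted p = 0.0382), and 7 had an unadjusted p under 0.05 (against 20.9%). Next to it stood Chrm1, the muscarinic M1 receptor gene that closes the M-current (-0.27, adjusted p = 0.0530), and Lgi1, a secreted protein gene of the Kv1 complex (-0.23, adjusted p = 0.0750). Atp1b3, a sodium pump subunit gene, was at 0.26 (adjusted p = 0.131). The median of the partners was -0.02, against 0.02 for all probe sets. In KO_A against WT_A 0 of 29 were called (against 0.0294%) and 6 had an unadjusted p under 0.05 (against 14.8%). In the difference between age effects 0 were called (against 0.0471%) and 4 had an unadjusted p under 0.05 (against 10.5%).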

How the data were processed

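The 20 arrays (Affymetrix Mouse Genome 430 2.0) each hold the hippocampal RNA of 1 male mouse. The deposited values are linear intensities, which the authors made by the robust multichip average in the affy package of R 2.8.0, so that background correction, quantile normalisation and probe summary were already done and equalise the arrays' distributions. Each intensity was taken as log2. Depth is not defined for arrays, and their number, 4 mice in each group, limits the precision. Groups came from the labels.

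Symbols came from the platform annotation: 34945 of 45037 probe sets had 1 symbol, 932 several and 9160 none, and only the first were used for genes. Probe sets with 100 or more in at least 2 arrays were kept (16995). The 5 groups were fitted together in limma 3.58.1 (R 4.3.3) with lmFit and eBayes, and p-values were adjusted by Benjamini-Hochberg over all kept probe sets. Exact permutation tests were two-sided. The test scripts were tested on simulated data. Marker relations and promoter searches used Python 3.11.15, numpy 2.4.6 and scipy 1.17.1, and figures matplotlib 3.10.9. The rank products of the study's methods were not run.

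Any member could be named. Full statistics were given for members called or, in the comparisons of age, of genotype in aged mice and of memory, at an unadjusted p under 0.05 (the 3 with the smallest p where there were none). Named beside these were the highest member of each subfamily and the partner genes called or nearest to it, and members of the other comparisons were named after their values were seen. Relations to markers were 5, as another gene planned was not kept. The members, the marker and partner lists and the promoter motifs were chosen with earlier results of these data known. Comparisons over both ages and over both genotypes were added after the values were seen. Values of further members without single mice were also added after seeing the data.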

Additional observations from a re-analysis of the deposited data

Results flagged for a closer look

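In 13 of 215 sets of 4 mice, 1 set for each gene and group (6.05%), the highest or lowest mouse stood farther from the others than Dixon's 95% limit, and chance gives about 1 in 20. WT_Y-374 was the mouse in 4 of them, with 763.2 for Kcnab1 (991.9 to 1038.2 in the other WT_Y mice), 242.1 for Kcnj9 (197.4 to 201.1), 363.6 for Kcnn2 (414.6 to 423.0) and 205.2 for Kcns2 (324.4 to 355.7). WT_Y-371 read 20.1 for Kcne2 against 339.2 to 497.6 in the others of WT_Y. KO_A-41 read 1170.9 for Kcnc2, the Kv3.2 gene, against 861.5 to 891.2. KO_Y-578 read 492.8 for Kcnip4, the KChIP4 gene (552.2 to 561.3), and 287.6 for Kcnt2, a sodium-activated channel gene (328.7 to 334.7).

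The aged wild-type mice held the remaining 5. WT_AI-21 read 235.0 for Kcnj9 against 197.9 to 202.2. WT_AU-126 read 292.5 for Kcns2, the Kv9.2 gene, against 364.8 to 379.9, and WT_AU-23 read 132.6 for Kcnt1, the Slack channel gene, against 168.3 to 175.2. For Kcnq1ot1, WT_AU-57 read 42.8 (63.3 to 66.1 in the others) and WT_AI-49 read 96.1 (47.3 to 49.9).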

How the results depend on the processing

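No count of calls and no member given with full statistics reversed under the alternatives run, while uncalled members near 0 did change sign, as Kcnq3 and Kcnma1 in WT_A against WT_Y without WT_Y-374 and Kcnk2 in KO_A against KO_Y without KO_A-41. The counts of members called were 0 under all alternatives in WT_A, WT_AU and WT_AI against WT_Y, in KO_Y against WT_Y and in WT_AI against WT_AU. With array weights, which gave KO_A-41, KO_A-42 and WT_Y-374 low weights, 11 members were called in KO_A against KO_Y (3708 of all probe sets), 5 in KO_A against WT_A (2181), 2 in WT_AI against KO_A (1144), 1 in the difference between age effects (Kcnj9, 995) and 10 in age over both genotypes (2776). The last was 1 (Kcnd2) with arrays centred on their medians (468), at an adjusted p under 0.1 (825), with probe sets averaged by gene (345 of 9891 genes), and without WT_Y-369 and WT_Y-374 together (516). Leaving out 1 mouse at a time gave 0 to 4 in KO_A against KO_Y, where 410 of all probe sets were called with all mice. There were 4 without KO_A-41 (2628 of all probe sets) and Kcnj16 alone without KO_A-42 (355). It gave 0 to 3 in KO_A against WT_A (3 without KO_A-41, with 1413 of all probe sets against 5) and 0 to 2 in WT_AI against KO_A (2 without KO_A-41, with 499 against 2). In genotype over both ages it gave 0 to 1 (Kcnk2 without KO_A-223, with 19 of all probe sets against 20). In age over both genotypes it gave 0 to 1, where 440 of all probe sets were called with all mice. These were Kcnd2 without WT_Y-374 (633) or KO_A-41 (1448) and Kcnj16 without KO_A-42 (572). Without KO_A-42 and KO_A-222 together, an alternative chosen after seeing the data, 0 were called in the comparisons with KO_A, the only ones it was run for. With fewer mice in KO_A a call is harder to reach, so this 0 does not show that differences were absent. The causes were not tested. A filter of 100 or more in 4 arrays left out Kcnq1ot1 only. Centring moved the median of all probe sets by at most 0.05 (log2). No separate fit of the groups compared was made for the difference and for the comparisons added. No paired analysis was possible because the groups share no replicate numbers.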
